A study of Mus musculus with 10 samples.

Results

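Interferon-induced gene families were read in the cochlea, the hearing organ of the inner ear, of mice with an error-prone mitochondrial DNA polymerase. The members were the genes whose platform symbol names a classical interferon family: the interferon regulatory factors, the Ifit, Ifitm, Ifi, Oas, Gbp, Mx, Irg and Isg genes, and the single genes Stat2, Usp18, Rsad2, Bst2, Xaf1, Rtp4 and Zbp1. The pattern found 67 genes among 18193 genes with a probe set of their own, and each gene was read at its brightest probe set, the one with the highest mean log2(signal + 16) over all arrays. Of these genes 48 were bright enough to be tested, among 11871 genes tested in all, and 19 were too dim and are described by their signals. A symbol pattern is not a test of induction: it also takes in Irf2bp1, Irf2bp2, Irf2bpl and Isg20l2, which are named for other proteins and are not known as interferon-induced, and Ifitm5 and Ifitm10, which sit in the Ifitm family by sequence.

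The samples were 10 cochlea RNA samples of male mice aged 9 months, each on 1 Affymetrix array. The 5 wild-type samples were Polg+/+, and the 5 D257A samples were PolgD257A/D257A, homozygous for a substitution that takes the proofreading activity from DNA polymerase gamma and so lets errors build up in the mitochondrial genome. The labels name no inbred strain, and they do not state that each array is a separate animal. The design text adds that replicates were not made. Here n counts arrays, and SDs and p-values measure the spread between these 10 samples, whether or not it is a spread between animals. Whole cochlea RNA mixes many cell types, and fewer cells of a type cannot be told apart from less RNA per cell.

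Type I interferons bind the receptor Ifnar1/Ifnar2, and the kinases Jak1 and Tyk2 pass the signal to a complex that includes Stat2 and Irf9 and binds the interferon-stimulated response element (ISRE) in promoters. Interferon gamma acts through its own receptor and the gamma-activated site (GAS). The genes induced this way restrict viruses at entry, at RNA decay, at translation and at assembly, and several encode feedback inhibitors. Mitochondrial DNA that reaches the cytosol is known to set off the same pathway through nucleic acid sensors, which is the background against which the families were read in a mitochondrial mutator.

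Upstream stretches of 6 members are shown first: those of Ifit1bl2, Ifitm6 and Irf8, which had a probe set called higher, and for comparison those of Ifit1, Ifit3 and Irgm2, which were not called. They were read from RefSeq on the mouse build GRCm38.p6 in windows from 250 bases before to 50 after each gene's start. All 67 members matched a RefSeq symbol and 52 had a window. Capitals mark the ISRE core GAAANNGAAA, or the GAS letters TTCNNNGAA in Irf8 and Ifitm6, on either strand, with overlapping matches counted. The genes Ifit1bl2 and Ifit1 start head to head on chromosome 19, at chr19:34640744-34640888 on the plus strand, with 2 ISRE cores in the 145 bases between them, at positions 42 and 61 from the 5′ end. Another RefSeq start of Ifit1bl2 had its window at chr19:34629762-34630061, without an ISRE core. Ifit3 lies at chr19:34583349-34583528, plus strand, with cores at -156 and -122 from the start. Irgm2 lies at chr11:58214857-58214976, plus strand, with a core at -64 and a GAS match, left in lower case, at -75. Ifitm6 lies at chr7:141016893-141017042 on the minus strand, with no ISRE core and a GAS match at -10. Irf8 lies at chr8:120736158-120736237, plus strand, with GAS matches at -171 and -153. Another RefSeq start of Irf8 had its window at chr8:120738389-120738688, without a GAS match.
between Ifit1bl2 and Ifit1: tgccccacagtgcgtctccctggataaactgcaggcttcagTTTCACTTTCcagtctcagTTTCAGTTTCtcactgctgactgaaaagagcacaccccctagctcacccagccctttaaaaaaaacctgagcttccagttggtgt
Ifit3: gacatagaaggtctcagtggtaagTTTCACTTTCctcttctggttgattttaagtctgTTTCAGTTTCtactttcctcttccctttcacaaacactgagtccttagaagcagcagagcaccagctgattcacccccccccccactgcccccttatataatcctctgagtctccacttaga
Irgm2: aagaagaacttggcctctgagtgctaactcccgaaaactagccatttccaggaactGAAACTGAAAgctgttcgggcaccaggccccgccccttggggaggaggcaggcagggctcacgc
Ifitm6: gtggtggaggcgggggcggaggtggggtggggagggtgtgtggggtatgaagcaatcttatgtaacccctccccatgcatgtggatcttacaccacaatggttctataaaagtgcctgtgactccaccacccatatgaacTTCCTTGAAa
Irf8: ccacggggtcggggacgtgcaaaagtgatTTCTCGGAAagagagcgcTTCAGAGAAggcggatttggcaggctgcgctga

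The ISRE core stood in 24 of 64 member windows (37.5%), against 1131 of 32851 windows of all genes (3.44%). Counted by gene it stood in 23 of 52 members (44.2%) and in 3.99% of 27025 genes. Among genes with a window it was found in 4 of 5 Ifit genes, 4 of 4 large GTPases and 3 of 4 immunity-related GTPases. It stood in 3 of 5 Ifi200 genes, 3 of 7 oligoadenylate synthases and 3 of 8 Ifitm and Bst2 genes. Fewer had it among transcription factors (2 of 9) and other effectors (1 of 3). None of the 3 other Ifi genes and none of the Irf2 binding proteins had it. The GAS letters stood in 15 of 64 member windows (23.4%) against 8.3% of all windows. A match is a description of the letters in that window. Of tested members with an ISRE core, 11 of 17 had a positive log2 fold change, with a median of 0.11, and 1 was called. Of those without one, 14 of 23 were positive, with a median of 0.06, and 1 was called.

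The deposited values had near-equal trimmed mean signals on all arrays, 1494.4 to 1496.2. Whether the submitters' processing set this level is not given, so it is no check of the samples. The correlation between arrays ran from 0.854 to 0.951. Wild type replicate 3 and D257A replicate 2 were the least like their own groups, with mean correlations of 0.914 and 0.89. Polg itself had a log2 fold change of -0.02, which does not check the labels because the mutation is a substitution. Cochlear markers were present: Coch, Otos, Gjb2 and Gjb6 were bright, the outer hair cell motor Slc26a5 and the otoconial protein Oc90 stayed below 577.4 on every array, and none of 13 tested cochlear markers was called by limma in either direction (2 at an unadjusted p under 0.05, both lower). Markers of airway and mucosal epithelium (7 of 10 called lower, summed signal 89382 to 360478 in wild type and 11238 to 22517 in D257A) and of skeletal muscle (6 of 12 called lower, 172009 to 499422 and 9058 to 257713) moved with genotype. None of these markers stayed below 577.4 on all arrays, and their part in the results below was not tested.

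Read as a set, the families moved little. Of 48 tested members, 2 rose in D257A at an adjusted p of 0.05 or less (limma, p-values adjusted by Benjamini-Hochberg across the 22518 probe sets tested), Ifit1bl2 and Ifitm6, and none fell. That is 4.17% of members, beside 0.657% of all genes called higher and 1.66% called lower. Ifit1bl2 was bright enough to be tested only through its D257A arrays, so this share is a description. At an unadjusted p under 0.05 there were 4 higher members and 4 lower ones, 8.33% each, against 6.49% and 10.2% of all genes. The higher ones include Ifit1bl2 and Ifit1bl1, which was also bright enough to be tested only through its D257A arrays. The higher share is therefore a description here too. The groups did not overlap in 2 higher members (Ifit1bl2 and Ifitm6) and 2 lower ones (Irgm2 and Usp18), 4.17% each, against 1.77% and 3.52% of all genes.

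The log2 fold change was positive in 30 of 48 members (62.5%), against 47.1% of all genes tested, with a median of 0.0852 against -0.0223. Under a scaling that centres each array on its median, which moves the median of all genes to -0.123, the members' median was -0.0155 with 23 positive and 25 negative, so the count of positive members depends on the scaling. The median size of change was 0.17 log2 units in members and 0.212 in all genes, and 39 of 48 members changed by less than 0.5. The 95% interval lay within 1 log2 unit either way in 39 members. In the other 9 (Ifi209, Ifit1bl1, Ifit1bl2, Ifit3, Bst2, Ifitm6, Oasl1, Oasl2 and Irf7) it reached beyond a 2-fold difference.

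**Figure D1:**
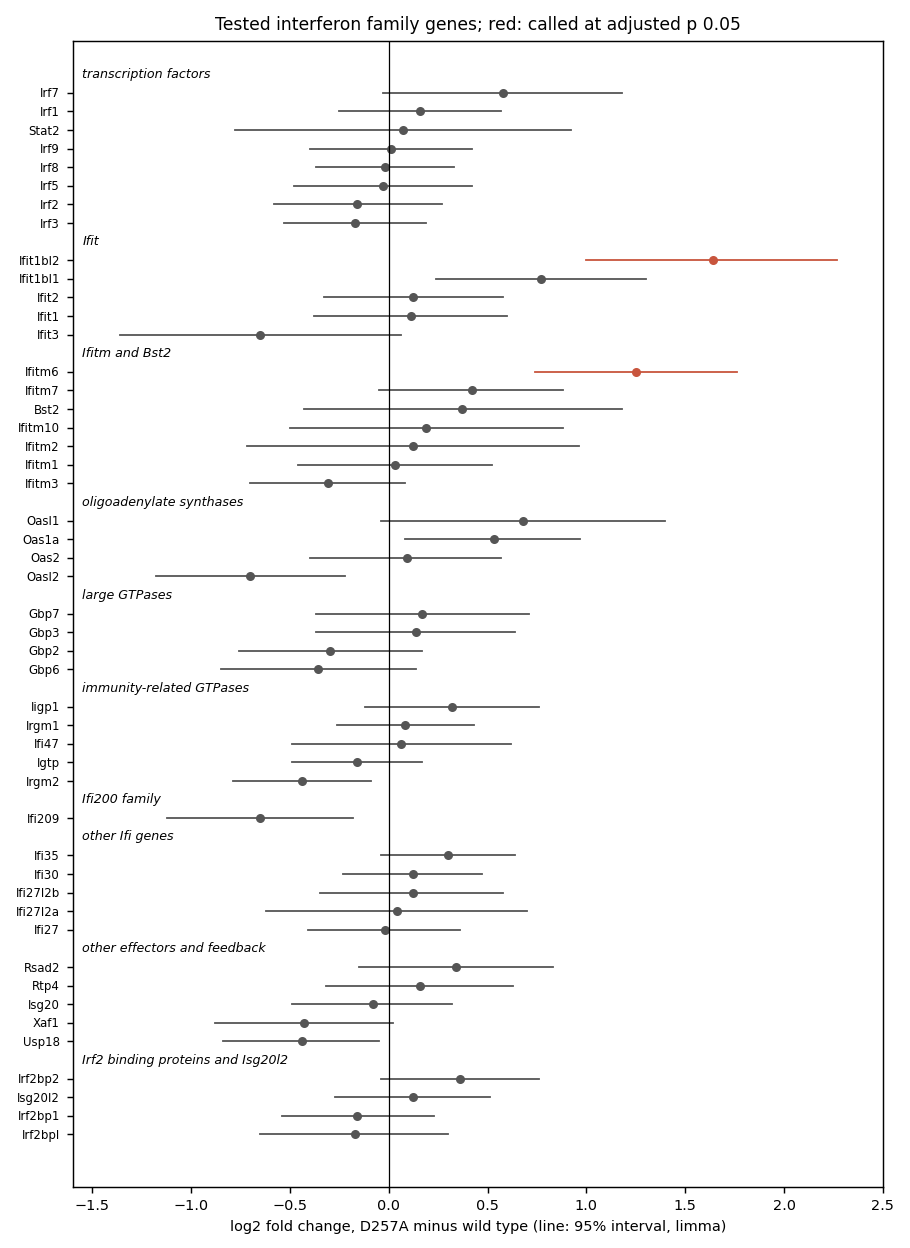
Log2 fold change (D257A minus wild type, on the log2(signal + 16) scale, n = 5 arrays a group) of the 48 tested members by role, with the 95% interval from limma as a line. The 2 members called at an adjusted p of 0.05, Ifit1bl2 at 1.64 and Ifitm6 at 1.25, are red, and most other points lie within 0.5 of zero.

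The transcription factors that carry the signal were measured first. Irf7, the factor that amplifies interferon production and is itself strongly induced by interferon, gave signals of 1018.1, 1490.2, 1047.6, 1764.0 and 1421.8 in wild type and 1339.9, 1393.3, 1652.4, 3259.2 and 2991.3 in D257A. Replicates 4 and 5 of D257A lay above all wild-type arrays and the other D257A arrays within their range. The log2 fold change was 0.58 (SE 0.28) with an adjusted p of 0.319. Stat2, a subunit of the factor that binds the ISRE, was at 1098.3, 1333.4, 331.0, 1208.2 and 1424.9 in wild type and 779.2, 618.1, 1061.3, 1842.0 and 1130.6 in D257A, a difference of 0.07 (SE 0.39; adjusted p = 0.955). Wild type replicate 3 held the lowest Stat2 signal of all 10 arrays. Without that array the Stat2 difference was -0.31. Its DNA-binding partner Irf9 lay at 1892.2 to 2385.3 in wild type and 1380.7 to 2748.7 in D257A (log2 fold change 0.01, SE 0.19, adjusted p = 0.987). Irf1, induced mostly by interferon gamma, differed by 0.16 (SE 0.19; adjusted p = 0.718), with signals of 1916.3 to 3075.9 and 2071.9 to 3641.6. Irf3, the constitutive factor that sensors activate by phosphorylation, was the brightest of the group at 3586.6 to 5100.0 and 2927.0 to 4737.7, with a difference of -0.17 (SE 0.17; adjusted p = 0.657). Irf2 and Irf5 differed by -0.16 and -0.03. Of 8 tested factors, 4 were positive and 4 negative, and the lymphoid factor Irf4 was too dim to test.

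Irf8, a factor of myeloid cell development, gave different answers at its 2 probe sets. The brightest set was level, at 857.7 to 1210.0 in wild type and 933.7 to 1142.9 in D257A (log2 fold change -0.02, SE 0.16, adjusted p = 0.965). The dimmer set, singled out after its values were seen, gave 395.0, 560.3, 393.4, 413.9 and 475.1 in wild type and 1004.1, 1112.7, 827.2, 709.6 and 1176.7 in D257A. Every D257A array lay above every wild-type array. All wild-type signals were below the edge of the test at 577.4 and all D257A signals above it, so this set too was tested only through its D257A arrays. Its log2 fold change of 1.07 had an adjusted p of 0.0188, and within that selection the call held with each of the 10 arrays left out in turn (adjusted p at most 0.0477). Of all 22518 tested probe sets 1.03% were called higher, and of 63 tested probe sets of members 3 were, those of Ifit1bl2 and Ifitm6 and this one. Which of the 2 sets reads the level of Irf8 mRNA was not tested. None of the probe sets of members was called lower. The result is sensitive to the filter on dim probe sets: with all probe sets in the fit the dimmer Irf8 set kept its call with every array in (adjusted p = 0.033) and lost it in 8 of 10 fits that left out an array.

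The Ifit proteins bind viral RNA that lacks the host cap marks and hold it off the ribosome. Ifit1bl2, a member of the Ifit1 group that starts beside Ifit1, gave 168.2, 373.5, 562.8, 388.5 and 336.9 in wild type and 885.6, 1374.7, 1191.8, 816.4 and 1352.3 in D257A. The groups did not overlap: 366.0 ± 140.8 against 1124.2 ± 260.3 (SD, n = 5). The log2 fold change was 1.64 (SE 0.29), a fold of 3.12 on the log2(signal + 16) scale, with an adjusted p of 0.0145. All 5 wild-type signals lay below 577.4, the signal at the edge of the test, and may lie in the background, so Ifit1bl2 entered the test through its D257A arrays. It fell below that edge without D257A replicate 2, 3 or 5, and the call held in the 7 fits without one of the other arrays, at adjusted p-values of 0.00796 to 0.0431. With no filter it held in 6 of 10 such fits and was lost in 4 (adjusted p up to 0.0596, without wild type replicate 5). A second Ifit1bl2 probe set stayed at 3.8 to 81.6 on all arrays and is no measure of it.

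Ifit1bl1, a further member of the Ifit1 group, gave 466.7, 436.0, 361.1, 753.7 and 518.5 in wild type and 855.5, 1029.6, 555.1, 867.7 and 1052.9 in D257A. D257A replicates 1, 2, 4 and 5 exceeded every wild-type array and replicate 3 did not. The difference of 0.77 (SE 0.24) had an unadjusted p of 0.00756 and an adjusted p of 0.122. All wild-type signals of Ifit1bl1 except that of replicate 4 lay below the edge of the test. Ifit1bl1 too was therefore bright enough to be tested only through its D257A arrays. Ifit1, on the other side of the shared promoter stretch, was at 3574.9, 4389.1, 6104.3, 5713.7 and 3399.1 in wild type and 4479.9, 6443.5, 3324.3, 6181.4 and 4609.4 in D257A. Its groups overlapped almost fully, and the difference was 0.11 (SE 0.23; adjusted p = 0.853). Ifit2 differed by 0.12 (adjusted p = 0.819). Ifit3, a partner of Ifit1 with 2 ISRE cores upstream, went the other way in some arrays, at 4585.9, 5735.1, 4038.8, 5475.5 and 5407.7 in wild type and 5336.8, 1871.5, 5793.4, 3471.3 and 1632.3 in D257A. Replicates 2, 4 and 5 of D257A lay below all wild-type arrays while 1 and 3 lay among or above them. Its difference was -0.65 (SE 0.33; adjusted p = 0.344).

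The Ifitm proteins sit in cell and endosome membranes and block virus entry. Ifitm6, a member of the cluster on chromosome 7 known from myeloid cells, gave 1023.1, 1300.1, 1294.0, 1001.5 and 1359.7 in wild type and 3353.8, 3974.4, 2570.8, 1587.5 and 3420.4 in D257A. Every D257A array exceeded every wild-type array, and replicate 4 was the lowest of them. The means were 1195.7 ± 169.5 and 2981.4 ± 925.9 (SD, n = 5), the log2 fold change 1.25 (SE 0.24), a fold of 2.38 on that scale, and the adjusted p 0.0186. Leaving out each array in turn ended the call in 1 of 10 fits (adjusted p = 0.0507 without wild type replicate 4). With no filter on dim probe sets it held with every array in (adjusted p = 0.0227) and in 5 of 10 such fits.

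None of its tested relatives was called. Ifitm3, the brightest Ifitm gene and the best known entry inhibitor, was at 20910.6, 20646.2, 21741.8, 23395.9 and 22338.8 in wild type and 23616.4, 14616.4, 23182.8, 12984.4 and 15908.8 in D257A. Replicates 2, 4 and 5 of D257A lay below all wild-type arrays. The difference was -0.31 (SE 0.18; adjusted p = 0.405). Ifitm1 and Ifitm2 differed by 0.03 and 0.12 (adjusted p = 0.965 and 0.914). Ifitm7 differed by 0.42 (SE 0.22; adjusted p = 0.354), with signals of 408.9 to 736.6 and 531.9 to 770.6. Its wild-type mean of 518.3 lay below the edge of the test and its D257A mean of 685.4 above it. Ifitm7 was therefore tested only through its D257A arrays. Bst2, the tether that holds budding virus at the cell surface, was at 902.1 to 1981.0 in wild type and 915.9 to 4892.8 in D257A, with the highest value in D257A replicate 4 alone, and differed by 0.37 (adjusted p = 0.656). Ifitm5, known from bone-forming cells, was too dim to test.

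**Figure D2:**
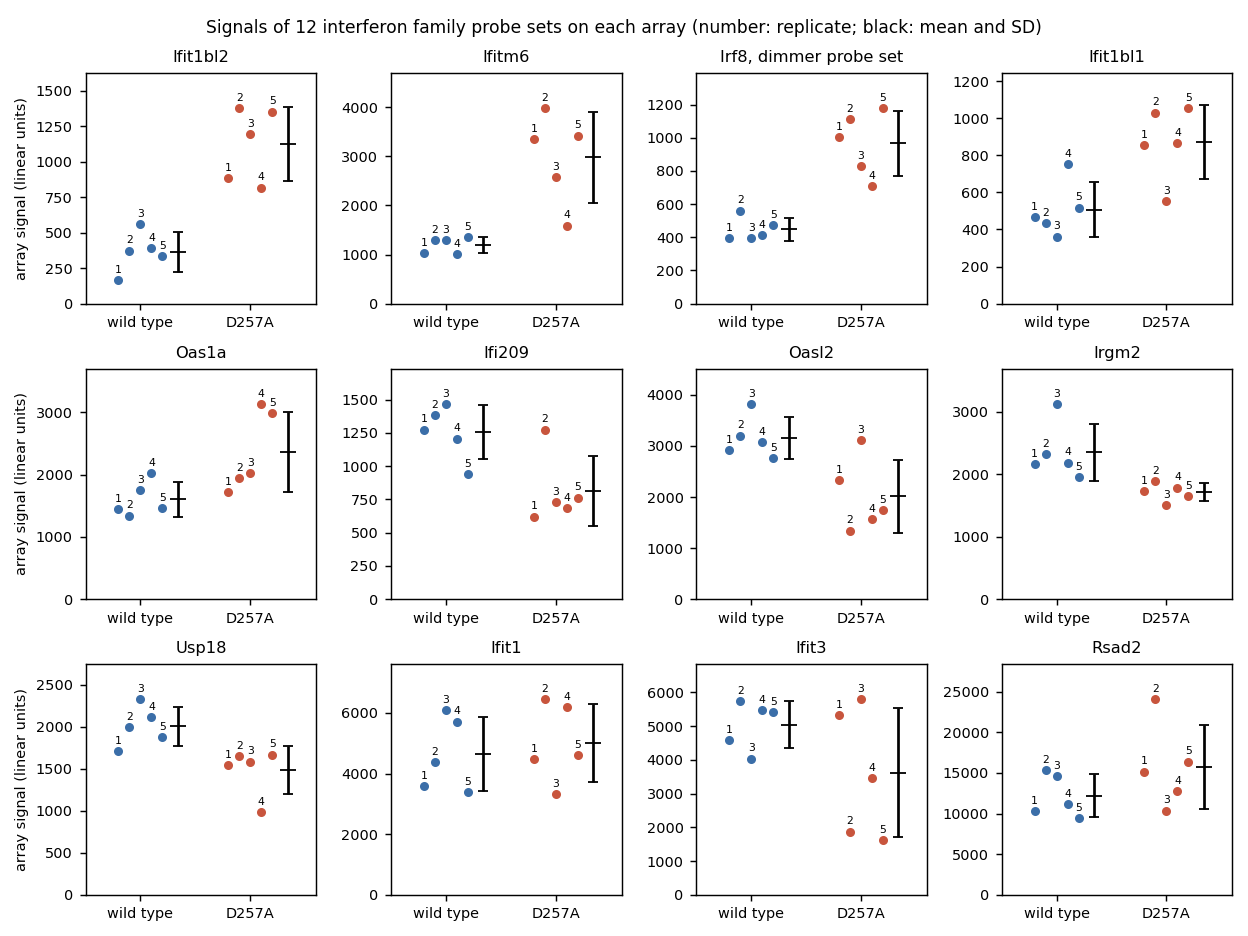
Array signal (linear units, vertical axes from 0) of 12 probe sets of interferon family genes on each of the 5 wild-type (blue) and 5 D257A (red) arrays, numbered by replicate, with mean and SD in black. The groups are apart for Ifit1bl2, Ifitm6, the dimmer Irf8 set, Irgm2 and Usp18, and overlap in the other panels.

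Oligoadenylate synthases sense double-stranded RNA and make the messenger that turns on RNase L, and the Oasl proteins are their relatives. Oas1a, with 2 overlapping ISRE cores just before its start, gave 1444.2, 1340.0, 1752.8, 2025.4 and 1458.4 in wild type and 1722.1, 1946.5, 2023.8, 3133.3 and 2981.9 in D257A. Replicates 4 and 5 of D257A stood above all other arrays and the groups overlapped. The difference of 0.53 (SE 0.21) had an unadjusted p of 0.0241 and an adjusted p of 0.213. Oasl1, an inhibitor of Irf7 translation, was at 446.4 to 810.2 in wild type and at 521.6, 1586.1, 757.2, 725.9 and 1762.3 in D257A, high in replicates 2 and 5 alone (log2 fold change 0.68, SE 0.33, adjusted p = 0.322). Oasl2 was lower, at 2916.4, 3201.9, 3822.5, 3074.2 and 2758.8 in wild type against 2328.6, 1344.6, 3118.5, 1564.8 and 1742.0 in D257A. D257A replicates 1, 2, 4 and 5 lay below every wild-type array and replicate 3 did not. Its difference of -0.70 (SE 0.22) had an unadjusted p of 0.00784 and an adjusted p of 0.125. Among fits without 1 array it passed the threshold only without that replicate (adjusted p = 0.0494). Oas2 differed by 0.09 (adjusted p = 0.888). Within this family 3 tested genes had positive and 1 a negative difference, and none was called.

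The immunity-related GTPases act on the membranes around intracellular parasites and in autophagy, and answer mostly to interferon gamma. Irgm2 gave 2164.2, 2320.0, 3125.8, 2186.7 and 1957.3 in wild type and 1728.1, 1895.7, 1505.8, 1786.3 and 1650.9 in D257A. Every D257A array lay below every wild-type array. The difference was -0.44 (SE 0.16), with an unadjusted p of 0.0187 and an adjusted p of 0.189. Its relatives Igtp (-0.16; adjusted p = 0.63), Irgm1 (0.08), Ifi47 (0.06) and Iigp1 (0.32; adjusted p = 0.454) overlapped between groups. The 2 Iigp1 probe sets had opposite signs, 0.32 and -0.42. The large GTPases, which coat and break open pathogen vacuoles, gave small differences as well: Gbp6, the brightest, -0.36 (SE 0.23; adjusted p = 0.457), Gbp2 -0.30 (adjusted p = 0.521), Gbp7 0.17 (adjusted p = 0.782) and Gbp3 0.14. A second tested set of Gbp6 gave -0.56 (adjusted p = 0.199), with 4 D257A arrays below every wild-type array. The antiviral dynamin-like proteins Mx1 and Mx2, for which inbred mouse strains often carry defective alleles, were too dim to test, at 219.9 to 617.1 and 26.7 to 409.5.

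Feedback and effector genes of other kinds included the second lower member without overlap. Usp18, the protease that removes Isg15 from proteins and shuts off the type I receptor, gave 1705.0, 1997.9, 2323.9, 2112.1 and 1873.1 in wild type and 1542.3, 1646.1, 1585.5, 987.7 and 1667.3 in D257A. All D257A arrays lay below all wild-type arrays, replicate 4 by far. The difference was -0.44 (SE 0.18), with an unadjusted p of 0.0295 and an adjusted p of 0.235. Xaf1, a pro-apoptotic protein, differed by -0.43 (SE 0.21; adjusted p = 0.314). Rsad2 (viperin), whose product stops viral RNA synthesis, was the brightest here, at 9442.9 to 15375.7 in wild type and 10348.7 to 24038.0 in D257A. It was highest in D257A replicate 2, and the difference was 0.34 (SE 0.23; adjusted p = 0.479). Rtp4 differed by 0.16 and the exonuclease Isg20 by -0.08. The nucleic acid sensor Zbp1 was too dim to test. The ubiquitin-like Isg15 stood on a probe set with several symbols and was not analysed here.

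Among the other Ifi genes, Ifi27 was the brightest member of all, at 21682.1 to 29583.7 in wild type and 19022.4 to 33114.8 in D257A, with a difference of -0.02 (SE 0.18; adjusted p = 0.965). Ifi35 differed by 0.30 (SE 0.16; adjusted p = 0.364), the lysosomal thiol reductase Ifi30 by 0.12 (adjusted p = 0.754), Ifi27l2a by 0.04 and Ifi27l2b by 0.12 (adjusted p = 0.833). The 4 genes of the Irf2 binding and Isg20l2 group, not known as interferon targets, differed by -0.17 to 0.36 at their brightest sets, with adjusted p-values of 0.351 to 0.783. The 3 tested probe sets of Irf2bp2 gave 0.36, -0.31 and -0.38. A second tested set of Irf2bpl gave 0.51 (adjusted p = 0.181), against -0.17 at the brightest, with every D257A array above every wild-type array.

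**Figure D3:**
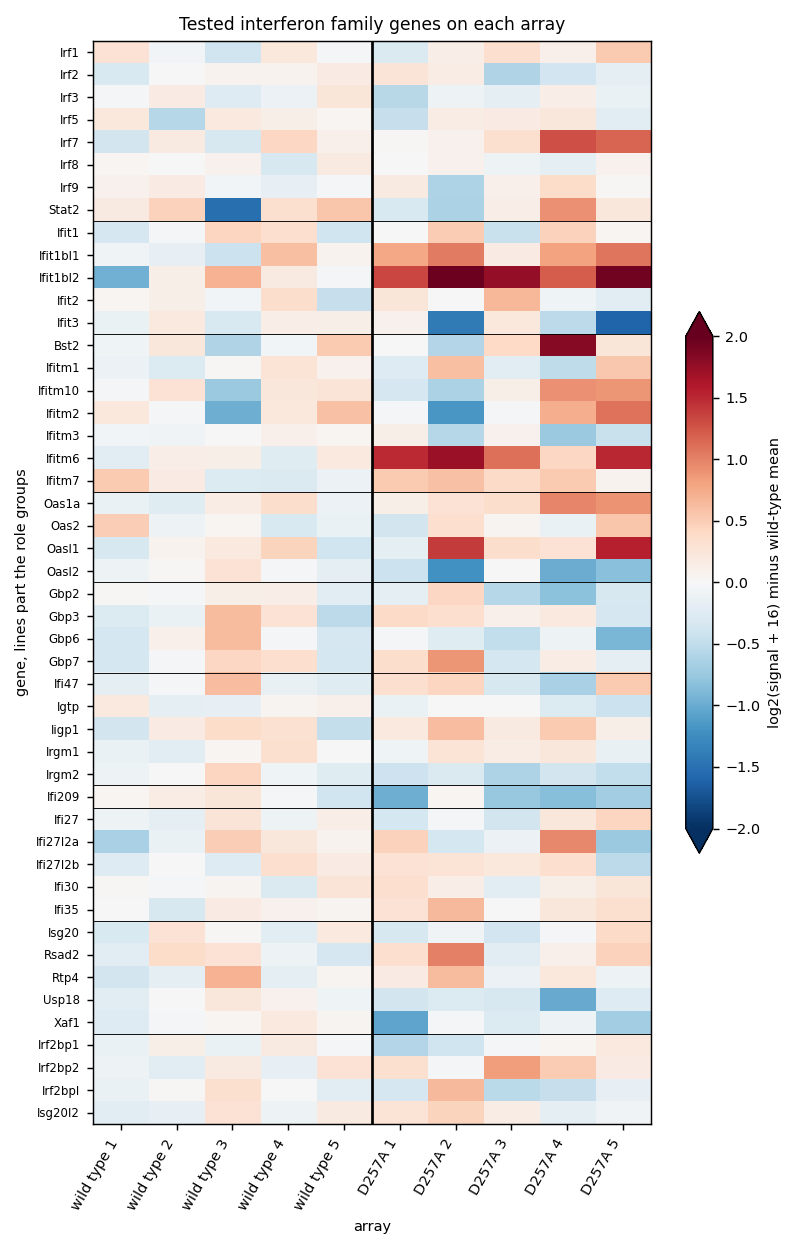
Each of the 48 tested members (rows, in role groups parted by lines) on each array (columns, wild type left and D257A right of the heavy line), as log2(signal + 16) minus the gene's wild-type mean. Ifit1bl2 and Ifitm6 are higher across all D257A columns, while Irf7, Ifit3, Bst2 and Oasl1 are high or low in some D257A columns only.

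The Ifi200 family, cytosolic and nuclear DNA sensors and their regulators, was mostly dim. Its 1 tested member, Ifi209, gave 1274.1, 1383.3, 1466.9, 1206.7 and 940.6 in wild type and 620.3, 1273.6, 729.3, 683.0 and 762.6 in D257A. D257A replicates 1, 3, 4 and 5 lay below every wild-type array and replicate 2 among them. The difference was -0.65 (SE 0.22), with an unadjusted p of 0.0109 and an adjusted p of 0.148. Without D257A replicate 2 it was -0.818 and passed the threshold (adjusted p = 0.0471), as it did when arrays were weighted by their quality (-0.746, adjusted p = 0.0353). Its second, dimmer probe set differed by 0.11. Ifi202b, a gene whose level is known to vary between inbred strains, was below the tested range, at 68.4, 102.5, 118.2, 34.6 and 14.0 in wild type and 635.0, 799.4, 430.8, 54.8 and 639.1 in D257A. D257A replicates 1, 2, 3 and 5 were far above all wild-type arrays and replicate 4 lay within them. With all probe sets in the fit its log2 fold change of 2.48 had an adjusted p of 0.0832. Ifi213 lay at 279.2 to 720.5 and 526.5 to 996.4 (0.88; adjusted p = 0.165 with no filter). Its second set lay at 4.1 to 71.4 and 122.8 to 204.1 without overlap, with a difference of 1.98 and an adjusted p of 0.0547 with no filter, all below the tested range.

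Of the 19 dim members, 11 had a positive difference and 8 a negative one, none had groups apart, and 9 stayed below 577.4 on every array. Groups were apart in 1.77% (higher) and 3.52% (lower) of all tested genes, and the share over dim genes was not computed. The highest signal of the dim members was 1142.3, and the lowest adjusted p with no filter was the 0.0832 of Ifi202b. Oas1e (1.43; adjusted p = 0.175 with no filter) and Oas3 (0.66; adjusted p = 0.355) had the largest differences among the 6 dim oligoadenylate synthases. Another 10 probe sets carry a family symbol beside other symbols and were not used.

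The members varied more between D257A arrays than between wild-type arrays, as did genes in general. The median SD of log2 signals was 0.255 in wild type and 0.361 in D257A over the members, and 0.272 and 0.343 over all tested genes. The D257A SD was the larger in 36 of 48 members (75.0%) and in 67.1% of all genes. No D257A array was high for the families as a whole: the median over members of the log2 signal, centred per gene, ran from -0.0427 to 0.132 across D257A arrays and from -0.132 to 0.133 across wild-type arrays. D257A replicate 2 was the highest array of its group for 19 of 48 members and wild type replicate 3 for 17. Irf7 and Oas1a were high in D257A replicates 4 and 5, Oasl1 in replicates 2 and 5 and Bst2 in replicate 4.

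Ifitm6 and Ifi202b were compared with markers of other cells in the same RNA. The summed signal of 12 neutrophil and granule markers was 119408, 186923, 153148, 111275 and 157762 in wild type and 251191, 323432, 177073, 111963 and 263987 in D257A. Of these, 11 were positive and 1 negative, with Mpo and Ctsg called higher and Ltf called lower, and none was below 577.4 on all arrays. The D257A arrays fell in the same order for the marker sum, Ifitm6 and Ifi202b, lowest in replicate 4, then 3, 1, 5 and 2. The dimmer Irf8 set had nearly that order, with replicates 2 and 5 exchanged. Over wild-type arrays, from lowest to highest, the marker sum ran 4, 1, 3, 5, 2, Ifitm6 ran 4, 1, 3, 2, 5 and Ifi202b ran 5, 4, 1, 2, 3. The wild-type order of the sum leans on Ltf, the marker called lower. Ltf gave 10408.9, 59173.8, 37739.6, 32903.8 and 66639.7 in wild type and 4035.4 to 12042.1 in D257A. Wild type replicate 5, highest for Ifitm6, had the highest Ltf signal of its group and the lowest S100a8 signal (23129.8). Replicate 4 of D257A had a marker sum within the wild-type range, and most of its sum came from S100a8 (30109.5) and S100a9 (31605.0). This array lay above every wild-type array for the granule genes Mpo (5575.1 against at most 4718.6), Ctsg (1899.0 against at most 1102.6) and Elane (1908.0 against at most 1688.5). For every other marker of the list it did not, the granule gene Prtn3 among them (2611.1 against at most 2835.5). The same array lay above every wild-type array for Ifitm6 (1587.5 against at most 1359.7) and the dimmer Irf8 set, and not for Ifi202b. The part of neutrophil RNA in these results was not tested.

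Ifit1bl2 had another order over D257A arrays, lowest in replicate 4, then 1, 3, 5 and 2. Among macrophage markers, 1 of 8 tested was called, the lysozyme Lyz2, lower (29373.2 to 90815.8 in wild type and 9256.2 to 18850.5 in D257A), and the marker sum was 54124 to 121568 and 38835 to 50815. Without Lyz2 the sum was 24225 to 30752 and 23239 to 36438, and 5 of 8 tested macrophage markers had a positive difference. The monocyte and macrophage receptor Csf1r did not separate the groups, at 13918.4 to 19927.8 and 12359.8 to 22154.6. Of T and NK cell markers 1 of 6 was bright enough to test and 3 stayed below 577.4 on all arrays. Of 3 tested B and plasma cell markers 2 were negative, and Jchain was called lower without overlap (-1.43; adjusted p = 0.00413). That list's sum was 19503 to 30131 and 20791 to 46805, most of it Xbp1, and without Xbp1 it was 4941 to 6788 and 2708 to 4456.

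**Figure D4:**
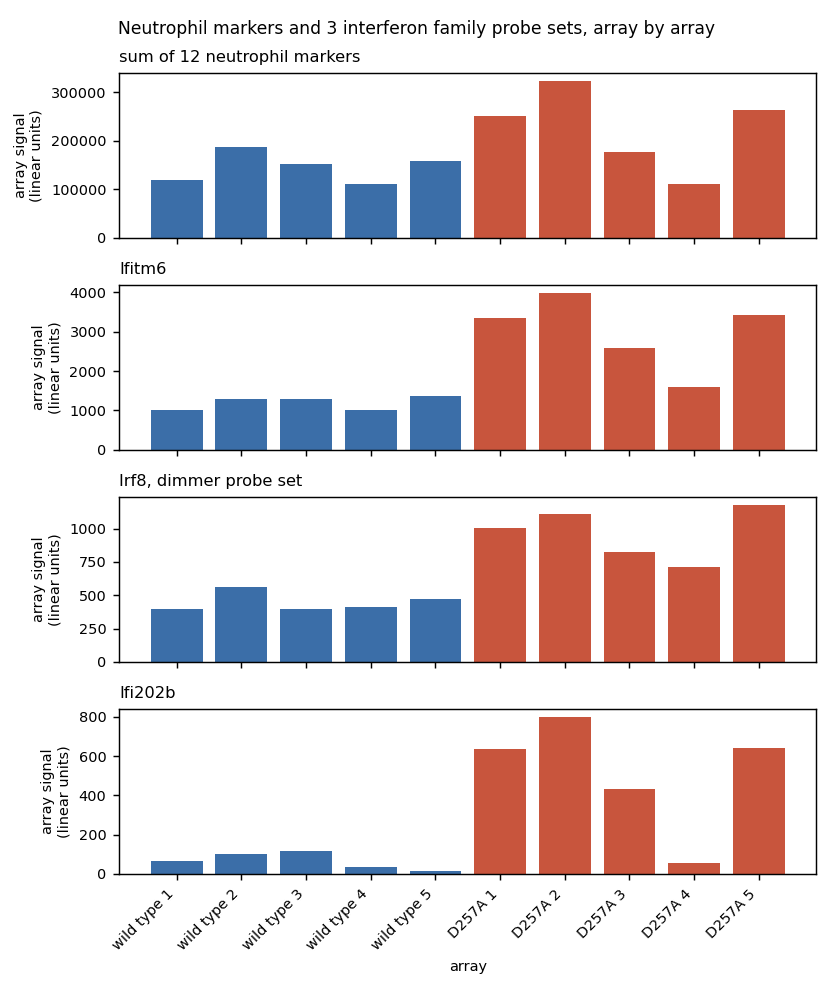
Summed array signal of 12 neutrophil markers (top) and signals of Ifitm6, the dimmer Irf8 probe set and Ifi202b on each array (linear units, bars from 0, wild type blue and D257A red). Within D257A, replicate 4 is lowest in all panels, and its marker sum of 111963 lies within the wild-type range of 111275 to 186923.

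Beyond the families, 76 genes of the interferon pathway were listed by role, of which 70 were measured and 56 tested. None was called in either direction by limma, where 0.657% of all genes tested were called higher and 1.66% lower. At an unadjusted p under 0.05, 4 were higher and 2 lower, beside 6.49% and 10.2% of all genes tested. The differences were 26 positive and 30 negative with a median of -0.0106. Among ligands, receptors and signalling genes, interferon beta (Ifnb1) stayed dim at 178.8 to 324.4 in wild type and 235.4 to 371.9 in D257A, and so did Ifna2, Ifna4 and Ifng. The receptor genes Ifnar1 and Ifnar2 differed by 0.12 and 0.13, and the kinases Jak1 and Tyk2 by -0.42 and -0.01. The feedback inhibitor Socs3 was at 1718.5 to 3452.6 in wild type and reached 15976.2 and 11406.1 in D257A replicates 2 and 5, with the other D257A arrays within the wild-type range (adjusted p = 0.343).

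Of 20 listed sensors and adaptors, 16 were measured and 11 tested, with 6 positive and 5 negative differences. Mb21d1 (cGAS), Tmem173 (STING), Trex1 and Traf3 had no probe set of their own under these symbols and were not read. The DNA sensors Aim2 and Tlr9 were too dim to test. The RNA sensors Ddx58 (RIG-I) and Ifih1 (MDA5) differed by 0.16 and -0.06. Mavs, the adaptor on the mitochondrial outer membrane that both signal through, was at 1529.0 to 2262.1 in wild type and 852.5 to 1419.9 in D257A without overlap, a difference of -0.53 with an adjusted p of 0.172. The kinase Tbk1 differed by 0.52 (adjusted p = 0.184), and Rnaseh2c, a subunit of the nuclease that clears RNA from RNA-DNA hybrids, by 0.61 (adjusted p = 0.118).

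Among 34 other tested genes known to be induced by interferon, 16 differences were positive and 18 negative. The chemokine Cxcl10 was nearest to the threshold, at 607.8, 528.2, 720.8, 786.3 and 542.7 in wild type and 1111.7, 2300.0, 1190.2, 868.1 and 2636.0 in D257A. Its groups did not overlap, with the highest signals in D257A replicates 2 and 5, the arrays in which Oasl1 and Socs3 were high. The difference was 1.21 (SE 0.30; adjusted p = 0.0551). Ly6e, a membrane protein that restricts virus fusion, differed by -1.22 log2 units (adjusted p = 0.0839), at 10465.5 to 23349.3 and 3304.6 to 12942.5. The antigen presentation genes B2m, Tap1 and Psmb9 differed by -0.07, 0.02 and 0.05.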

How the data were processed

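The 10 cochlea RNA samples had been hybridised to 10 mouse Affymetrix arrays, per the labels. Each deposited value is the linear intensity of a probe set on an array. The submitters' processing notes name GCOS 1.3, and how it corrected background and summarised probes is not given in the sources used here. The near-equal trimmed means (trim 2%) were kept as deposited. Detection calls and scan batches were not used here. Of 45037 probe sets, 34945 carried 1 gene symbol, 932 several and 9160 none, and 64 control probe sets were left out. Several-gene probe sets name no gene.

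From these, log2(signal + 16) was fitted by lmFit and trended eBayes (limma 3.58.1, R 4.3.3, 8 residual degrees of freedom, two-sided, group as the only term). The brighter 22518 probe sets by mean over all arrays (edge about 577.4) were tested and adjusted together by the Benjamini-Hochberg method, and a gene was called at an adjusted p of 0.05 or less. Fold changes on this scale understate changes of dim genes. No counts exist, and 5 arrays a group limit the precision.

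The members, roles, pathway genes and marker lists were chosen with earlier results of these data known. Values were given for all called members, for the 3 lowest p-values and the brightest gene of each role, for Stat2, Irf9, Irf7 and Irf1, and for members with an unadjusted p under 0.05. The Irf8 second set, the array orders and the named pathway genes were picked after their values were seen. The fit was tested on simulated data. Alternatives were pseudocounts of 1 and 64, median centring, quantile normalization, all probe sets or the brightest 30%, eBayes without its trend, array weights, a replicate block, the mean of a gene's probe sets, an adjusted p of 0.30 (the false discovery figure in the design text), each array left out, and wild type 3 with D257A 2 left out. No filter with each array left out was added after seeing the data.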

Additional observations from a re-analysis of the deposited data

Results flagged for a closer look

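In 64 groups of 5 arrays (32 members, each genotype apart), 4 had 1 array whose gap to the nearest other, divided by the group's range on the log2(signal + 16) scale, passed Dixon's critical value of 0.71. Chance passes it in about 1 in 20 groups. Ifi209, of the DNA-sensing Ifi200 family, had a signal of 1273.6 in D257A replicate 2 (gap 0.714 of the log2 range), above the other 4 D257A arrays. Ifi27l2b had 555.9 in D257A replicate 5 (0.852), below the others. Usp18, the receptor feedback inhibitor, had 987.7 in D257A replicate 4 (0.851), and the other D257A arrays were still below all wild-type arrays. Stat2 had 331.0 in wild type replicate 3 (0.819), and its dimmer probe set was also lowest on that array, at 73.6.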

How the results depend on the processing

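Ifit1bl2 and Ifitm6 stayed called with pseudocounts of 1 and 64, median centring, quantile normalization, no filter, no intensity trend, array weights and the replicate block. They were also called with the mean of probe sets. Only the brightest probe set of each was in that fit, so it does not check the choice of probe set for them. The count of higher members was 1 among the brightest 30% and without wild type 3 and D257A 2 together, where Ifit1bl2 was not tested, 1 to 2 over fits without 1 array, and 4 at an adjusted p of 0.30, where 4 were lower. Lower members numbered 1 with array weights (Ifi209) and 0 to 1 without 1 array. Higher pathway genes numbered 2 with array weights, 1 with the mean of probe sets, 5 at 0.30 and 0 to 1 without 1 array (1 without D257A 4). Lower ones numbered 2 at 0.30 and 0 to 1 (1 without D257A 3). The members' median was -0.0155 with median centring and 0.0154 to 0.0985 without 1 array. Over all probe sets, 233 were higher and 280 lower. These counts were 174 and 479 with median centring, 131 higher among the brightest 30%, 590 and 627 with array weights, 1911 and 2002 at 0.30, and 87 to 302 and 108 to 289 without 1 array, lowest without wild type 2 (95 and 108) and 5 (87 and 110); they were 128 and 153 without wild type 4, and 115, 148 and 120 higher without D257A 1, 2 and 5.

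Same-numbered samples were not paired by the data: their deviations correlated at 0.183, -0.214, -0.337, 0.148 and 0.181, and 1 of 5 matched its own number best. With the replicate number as a block, 74 probe sets were higher and 114 lower, and no call of a member changed. These signs turned: Irf9 -0.0892 and Stat2 -0.0347 with median centring, Ifit1 -0.0119 and Stat2 -0.19 with array weights, Irf2bp2 -0.112, Irf2bpl 0.168 and Iigp1 -0.0473 with the mean of probe sets (whose sets differ in sign), and Ifi27 0.0453 and Stat2 -0.135 without wild type 3 and D257A 2. Without 1 array Ifi27 ran from -0.136 to 0.0635, Irf9 from -0.0781 to 0.168, Stat2 from -0.31 to 0.241 and Gbp7 from -0.00886 to 0.302. The cause was not tested.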

Other observations

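Probe sets of 1 gene did not always order the arrays alike. Of 21 members with several probe sets, 11 had differences of both signs. For Ifi35, the brightest set was highest in D257A replicate 2 (11484.7, against 7397.8 to 9200.0 in the other D257A arrays), while another set of Ifi35 was lowest there (492.1, against 1617.9 to 3254.9). Irf3 had 4019.5 on that array at its brightest set, within the range of the group, and the lowest signal of all 10 arrays at its second set. The same array and wild type replicate 3 were the lowest of their groups for Ifitm2 (4204.3 and 4769.1), Bst2 (915.9 and 902.1), Stat2 (618.1 and 331.0) and the immunoproteasome subunit Psmb8 (393.5 and 852.2). These genes and arrays were picked after their values were seen, and the cause was not tested.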
